A study of Mus musculus with 16 samples.

Results

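Clusters 11, 14, 16 and 27 of the cancer cells in B78 tumors held 16201 of the 61317 cancer cells, or 26.4%, and 9.92% of all 163343 cells in 16 tumors. They were the 4 of 11 cancer cell clusters in which most cells were called S or G2M by the study's authors, so they were chosen by the phase calls, and the clusters themselves were built from the same cells' genes. A contrast of these clusters with the rest is therefore given as a description without a test. Cluster 11 held 5856 cells, cluster 14 held 4918, cluster 16 held 4355 and cluster 27 held 1072. Each of the 4 clusters had cells in all 16 tumors, between 353 and 1935 cells a tumor for the 4 together.

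Each sample came from a subcutaneous tumor of a male C57/BL6 mouse, 8 to 11 weeks old, whose sorted live cells went through droplet single-cell RNA sequencing. They came from B78, a mouse melanoma line, either wild type (WT, 7 tumors) or carrying a base edit that truncates the mitochondrial gene mt-Nd5, which encodes a subunit of respiratory complex I. The edited groups were mt.11944 60%, mt.12436 60% and mt.12436 80%, with 3 tumors each, where the percentage is heteroplasmy, the share of mitochondrial genomes with the edit. Each edited group was grown from an edited line, so differences between lines of the same genotype were not sampled. The question put to these data was whether the cycling clusters took a different share of the cancer cells, or differed in their own measures, between these groups.

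A dividing cell copies its DNA in S phase, prepares for division in G2 and divides in M phase, while G1 and resting cells do neither. S phase cells transcribe genes for nucleotide supply and for the replication machinery, and G2 and M phase cells transcribe genes for the spindle and for chromosome condensation. Because these genes rise and fall together, cycling cells of a tumor commonly form clusters of their own that are set apart by phase. Mki67, which encodes the proliferation antigen Ki-67, and Top2a, a topoisomerase that untangles copied DNA, are the usual markers of such clusters. The table analysed here lists cells and not gene expression, so the levels of Mki67 and Top2a were not analysed here, and the name cycling rests on the authors' S score, G2M score and phase calls alone.

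The phase calls followed the scores exactly. In 61317 of 61317 cancer cells the call was G1 where neither score was above 0 and otherwise the phase with the larger score. A weak score just above 0 thus gives the same call as a strong one, and the scores are given beside the calls throughout.

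Facts of the libraries bear on all values below. A tumor gave 2082 to 6108 cancer cells, with median unique molecular identifiers (UMIs, the counted RNA molecules of a cell) per cancer cell of 6347.5 in WT 3 to 23118.5 in mt.11944 60% 1. The table's batch column, which does not say what a batch was, put WT 1 to 3 with mt.11944 60% in batch 1, WT 4, 5 and 7 with mt.12436 60% in batch 2, and WT 6 with mt.12436 80% in batch 3. WT 5 had the largest share of erythroid-labelled cells, 5.93% of its cells, and mt.11944 60% 1 the largest share of fibroblast-labelled cells, 15.1%. Of the 16201 cells, 658 (4.06%) shared a barcode with a cell of another tumor, against 4.04% of all cells.

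Cluster 11 was mostly called S. Of its cells 76.0% were called S, 12.2% G2M and 11.8% G1, and its median S score was 0.206 against a median G2M score of 0.00434. Both scores were above 0 in 46.6% of its cells and the S score alone in 36.6%. Over the tumors the share called S ranged from 64.4% in WT 2 to 83.1% in mt.12436 60% 2. WT 2 also had the lowest S score of the 16 tumors in this cluster, 0.0888, and the largest share of G1 calls, 26.8%.

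Cluster 14 had both scores high at once. Both scores were above 0 in 98.7% of its cells, with medians of 0.265 for S and 0.437 for G2M, and its S score was above 0.2 in 63.3% of cells while its G2M score was above 0.2 in 93.2%. By the larger score 68.6% of its cells were called G2M and 31.4% S. None of its 4918 cells was called G1, which allows a share of up to 0.061%. Within the same tumor its S score was higher than that of cluster 11 in 14 of 16 tumors and its G2M score in 16 of 16.

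Cluster 16 was almost wholly called G2M. The call was G2M in 93.2% of its cells, S in 6.43% and G1 in 0.367%. Its median G2M score, 0.416, was close to that of cluster 14, and cluster 14 was the higher of them in only 10 of 16 tumors. Its median S score, 0.0727, was the lowest of the 4 clusters, and lay below that of cluster 14 in 16 of 16 tumors and below that of cluster 11 in 15 of 16.

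Cluster 27, the smallest, lay between the others. It held 74.6% G2M and 25.4% S calls, with median scores of 0.145 for S and 0.272 for G2M. None of its 1072 cells was called G1, which allows up to 0.28%. In the 14 tumors with at least 10 of its cells, both of its scores were below those of cluster 14 in 14 of 14. Its scores also lay nearest each other, within 0.05 in 17.8% of its cells against 7.1% in cluster 16.

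**Figure D1:**
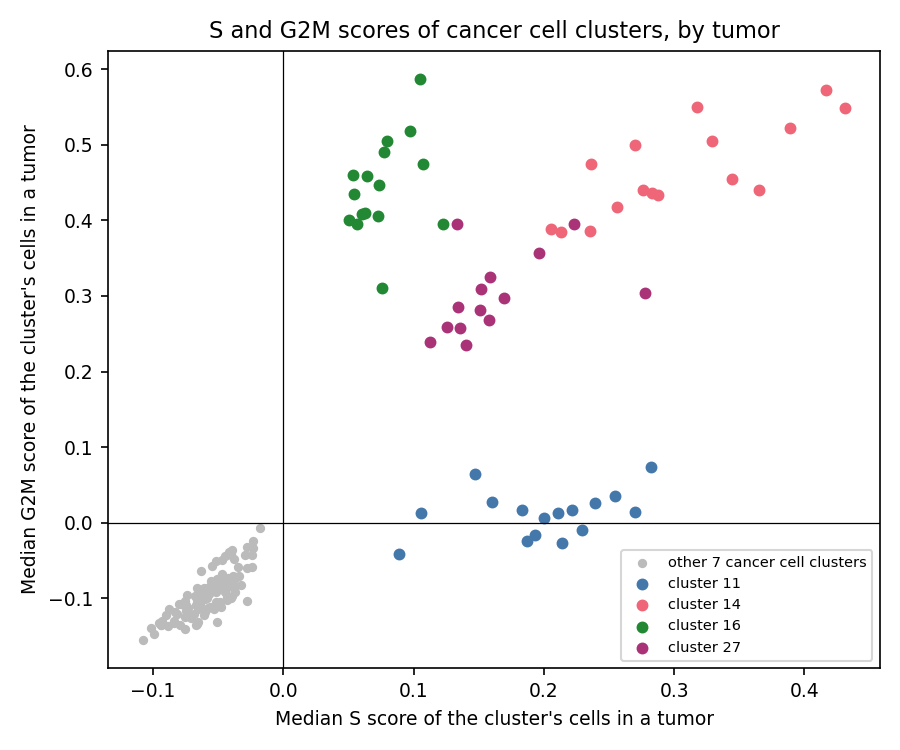
Each point is 1 cluster in 1 tumor with at least 10 of its cells, placed by the median S score (x axis) and the median G2M score (y axis) of those cells, both on the authors' scale without a unit. Cluster 11 runs along a G2M score near 0, cluster 16 rises at S scores of 0.0505 to 0.122, cluster 14 holds the corner where both are high, cluster 27 lies below it, and the 111 points of the other 7 clusters lie below 0 on both axes.

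In the plot of scores by tumor the 4 clusters kept their places. The tumors' median S score of cluster 11 ranged from 0.0888 to 0.282 and its G2M score from -0.0414 to 0.0734. In cluster 14 the ranges were 0.206 to 0.431 and 0.385 to 0.572, and in cluster 16 the G2M score ranged from 0.31 to 0.587. The other 7 cancer cell clusters had medians in single tumors between -0.107 and -0.0183 for S and between -0.155 and -0.00632 for G2M.

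The edge of the group was wide. Cluster 11, just inside, had 88.2% of its cells called S or G2M, and cluster 9, just outside, had 27.5%. The other 7 clusters together had 83.9% G1, 13% S and 3.12% G2M calls. These values chose the members, and nothing else is read from them.

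**Figure D2:**
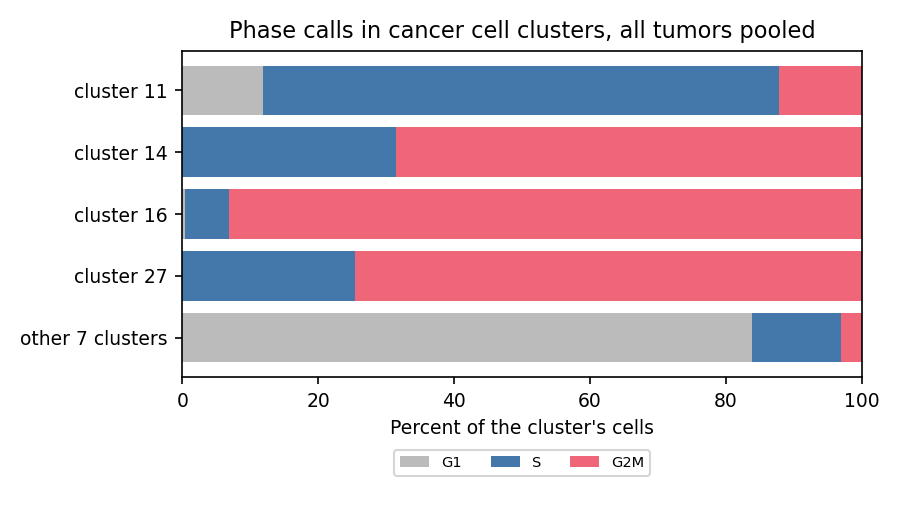
Bars give the percentage of cells called G1, S and G2M (x axis, percent of the cluster's cells) in each of the 4 clusters and in the other 7 cancer cell clusters together, all tumors pooled. Cluster 11 is mostly S, clusters 14, 16 and 27 are mostly G2M with 31.4%, 6.43% and 25.4% S, and the other clusters are mostly G1.

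Cells of the 4 clusters held more RNA molecules. The median UMIs per cell were 16366 in cluster 11, 19839.5 in cluster 14, 17079 in cluster 16 and 17399 in cluster 27, against 10574 in the other 7 clusters. Within the same tumor the ratio to the other clusters had a median of 1.55 for cluster 11, 1.98 for cluster 14 and 1.60 for cluster 16, and was above 1 in 16 of 16 tumors for each. For cluster 27 it had a median of 1.78 and was above 1 in 13 of 14 tumors, the exception being WT 5 with 13 cells. More RNA in a cell and better capture of it cannot be told apart here.

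The scores were also read at like depth. They set the calls by which the clusters were chosen, so a gap from the other clusters follows from that choice and is only described. Among cells with 10000 to 20000 UMIs, cluster 14 had median scores of 0.267 for S and 0.424 for G2M, cluster 16 had a G2M score of 0.403, and cluster 11 had an S score of 0.19. The other 7 clusters at that depth had -0.0584 for S and -0.0959 for G2M. The number of genes per cell at that depth was 4146 in cluster 14 and 3989 in cluster 11, against 3886 in the other clusters, while cluster 27 had 3686.

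Cluster 27 stood apart by its dissociation percentage, a percentage of UMIs that the authors deposited under that name. Genes so named are commonly those that cells switch on while a tissue is digested. Its median was 5.86%, against 3.22% in cluster 11, 3.39% in cluster 14 and 3.52% in cluster 16. The 14 tumors with at least 10 of its cells ranged from 5.34% to 6.18%, above every tumor of the other 3 clusters, whose highest value was 4.05%. Within a tumor it exceeded cluster 14 in 14 of 14 tumors, with a median difference of 2.41 percentage points. The nearest other clusters were 12, at 5.20%, and 9, at 5.03%, and cluster 27 was above each of them in 14 of 14 tumors, by a median of 0.674 and 0.853 points. Which genes entered this percentage is not given in the sources used here.

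Cluster 27 also had the lowest mitochondrial percentage of the 4, a median of 0.682% of UMIs, and was below the other 7 clusters of its tumor in 14 of 14 tumors. Clusters 11, 14 and 16 had 0.884%, 0.815% and 0.843%. The mitochondrial genome carries the edit in the mutant groups, and the percentage here counts all its transcripts together. The ribosomal percentage was 26.8%, 25.6%, 24.6% and 27.4% in clusters 11, 14, 16 and 27. Cluster 16 was below cluster 11 in 16 of 16 tumors, by a median of 2.50 points.

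The epithelial score, the authors' average over cytokeratins, Epcam and Sfn, is one of the measures by which they told B78 cells from other cells. Its median was 10.2 in cluster 11, 8.40 in cluster 14, 8.66 in cluster 16 and 6.96 in cluster 27, against 5.01 in the other 7 clusters. Among those 7 the medians ran from 3.08 in cluster 8 to 9.45 in cluster 13. Cluster 13 thus lay above clusters 14, 16 and 27, and a high score was not particular to the cycling clusters. Cluster 14 lay below cluster 11 in 16 of 16 tumors, by a median of 1.94. CopyKAT, which infers gains and losses of chromosomes from expression, called 98.3% to 99.3% of the cells of each cluster aneuploid. The other 7 cancer cell clusters had 98.1% and the macrophages of cluster 18 had 0.268%. Aneuploidy by CopyKAT was among the authors' criteria for malignant cells, so these shares do not test the label. No cell of the table was called a doublet, and the median doublet scores of the 4 clusters were 0.00294 to 0.013, against 0.00434 in the other 7. Cells over 33000 UMIs, close to the authors' limit of 37000, made up 3.07% of cluster 11, 6.45% of cluster 14, 4.41% of cluster 16 and 3.73% of cluster 27.

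Other classes of cells had clusters of this kind at a lower depth. Macrophage clusters 18 and 25 had 0.0298% and 1.92% G1 calls, and CD8 T cell cluster 33, with 560 cells, was called S in 35.7% and G2M in 64.3%. Cluster 33 had a median S score of 0.385 and a G2M score of 0.584, both above those of cluster 14, at 4494.5 UMIs. The depths differ, and no test was made between classes.

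Many cells called S or G2M lay outside the 4 clusters, with weak scores. Of 12420 cancer cells called S, 6546 (52.7%) lay in the 4 clusters, and of 10356 called G2M, 8947 (86.4%). S cells inside had a median S score of 0.334 and those outside 0.0309. G2M cells inside had a median G2M score of 0.439 and those outside 0.0282. Cluster 11 held 35.8% of all S calls, and clusters 14 and 16 held 32.6% and 39.2% of all G2M calls.

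The share of S and G2M calls that fell in the 4 clusters differed widely between tumors. In WT it ran from 49.3% in WT 5, through a median of 70.0%, to 77.3% in WT 7. In mt.11944 60% it was 40.7%, 71.7% and 76.0%, in mt.12436 60% 28.5%, 52.8% and 75%, and in mt.12436 80% 81.7%, 75.6% and 77.7%. The tumor with the lowest value, mt.12436 60% 1, had 37.5% of its cancer cells called S or G2M but only 11.2% in the 4 clusters. Its other 7 clusters had 11.3% G2M calls, against 0.876% to 6.68% in the other 15 tumors. Few of its cells had a strong score, since 6.49% of its cancer cells had a G2M score above 0.2. Over all 16 tumors that value ran from 5.35% to 19.6%. Its median G2M scores in clusters 9 and 12, -0.00632 and -0.0320, were the highest of any tumor in those clusters.

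**Figure D3:**
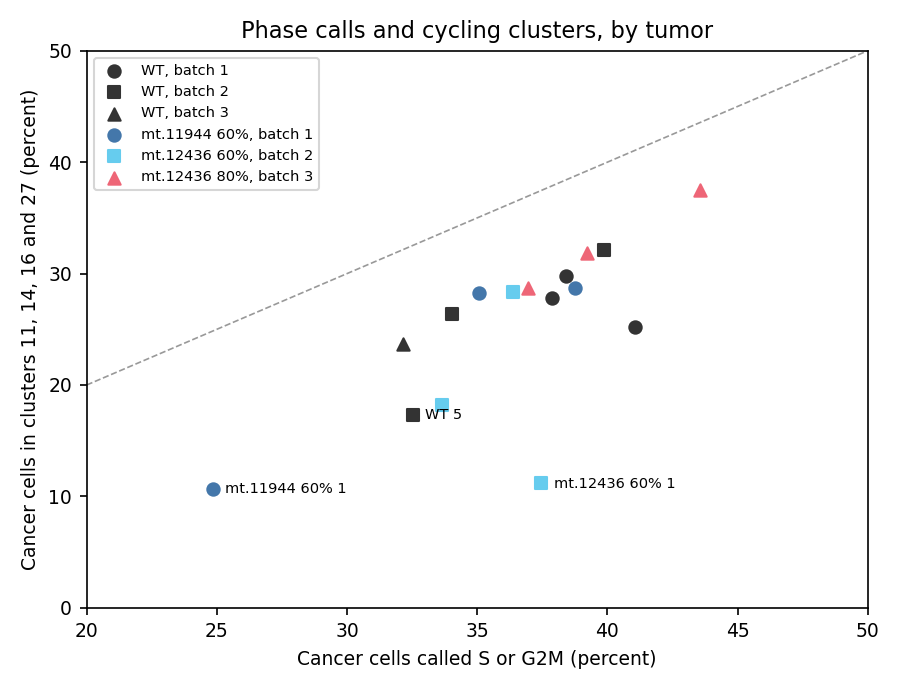
Each point is 1 tumor, placed by the percentage of its cancer cells called S or G2M (x axis) and the percentage in clusters 11, 14, 16 and 27 (y axis), with color for the group, shape for the batch and a dashed line where both are equal. All 16 tumors lie below the line, and mt.12436 60% 1 lies farthest below it, at 37.5% and 11.2%.

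Together the 4 clusters took between 10.6% and 37.5% of a tumor's cancer cells. The summed share ran in WT from 17.3% in WT 5, through a median of 26.4%, to 32.1% in WT 7. It was 10.6%, 28.7% and 28.3% in mt.11944 60%, 11.2%, 18.2% and 28.3% in mt.12436 60%, and 37.5%, 28.7% and 31.9% in mt.12436 80%. The means were 26.0% ± 4.79 (SD, n = 7) in WT, 20.9% ± 8.69 (SD, n = 6) in the 60% tumors and 32.7% ± 4.47 (SD, n = 3) in the 80% tumors. The lowest values of the 60% tumors belong to mt.11944 60% 1 and mt.12436 60% 1, and without both, left out for their values and so without a test, the mean of the 60% tumors was 25.9%. The exact 95% interval (Clopper-Pearson) of a cluster's share in one tumor had a half-width of 1.43 percentage points or less, which covers counting error only.

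The order of the clusters was not fixed. Cluster 11 was the largest of the 4 in 11 tumors, cluster 14 in 4 and cluster 16 in 1, and cluster 27 was the smallest in each tumor. Cluster 14 varied most among the 3 larger clusters, from 1.60% in mt.11944 60% 1 to 12.1% in mt.12436 80% 1, while cluster 11 ranged from 5.17% to 13.6% and cluster 16 from 3.64% to 10.5%.

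**Figure D4:**
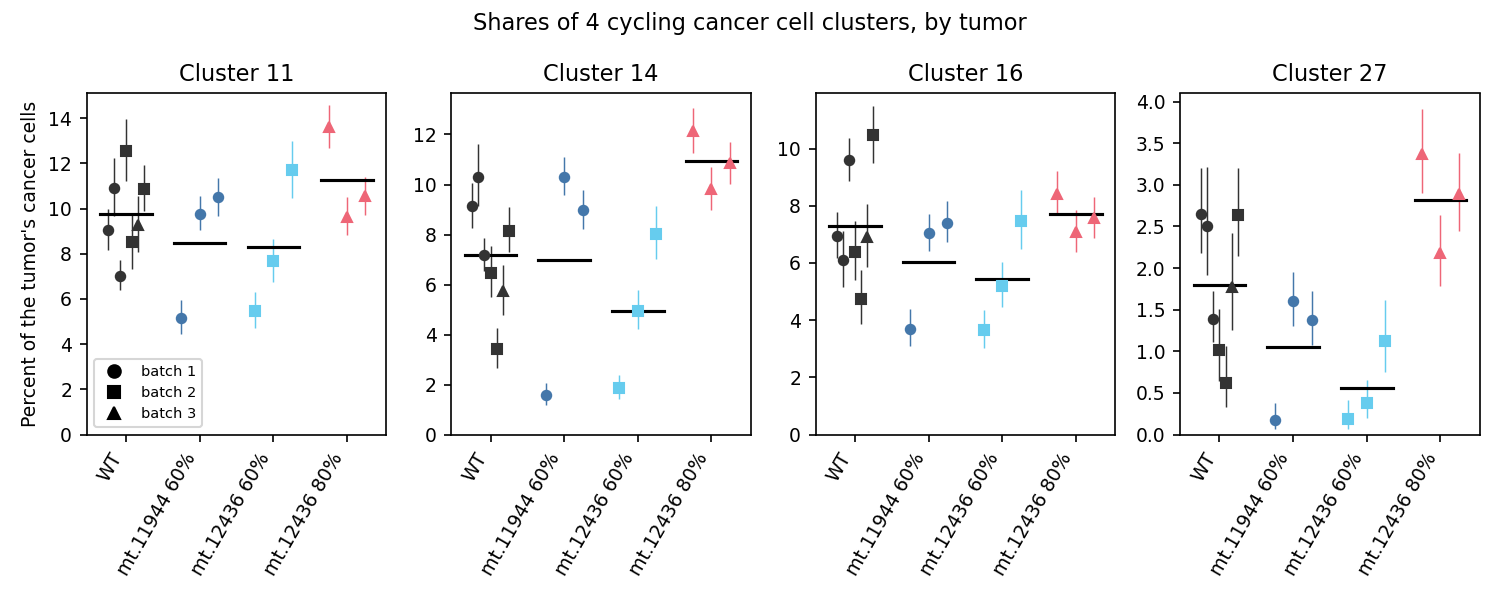
Each point is 1 tumor's percentage of cancer cells (y axis, from 0, own scale in each panel) in clusters 11, 14, 16 and 27, by group (x axis), with the batch as shape, the exact 95% binomial interval as a thin line and the group mean as a black bar. In cluster 27 the 3 tumors of mt.12436 80%, from 2.18% to 3.38%, lie above all 6 tumors at 60%, and in the other panels they overlap those 6.

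The groups were compared by an exact two-sided permutation test over tumors, adjusted over all 11 cancer cell clusters. Wild type was used in 3 of the 5 comparisons and the 60% and 80% tumors in several, so these comparisons share tumors. For all mutant tumors against WT, 0 of the 4 clusters passed an adjusted p of 0.05, against 18.2% of the 11 clusters. Unadjusted, 0 of 4 had a p under 0.05, against 18.2% of the 11, and 0 of 4 were without overlap, against 9.09%. The differences of the means, mutant minus WT, were -0.395 percentage points for cluster 11 (95% interval -3.03 to 2.24), 0.418 for cluster 14 (-3.20 to 4.02), -0.908 for cluster 16 (-2.92 to 1.14) and -0.322 for cluster 27 (-1.44 to 0.804), with adjusted p from 0.646 to 0.803. The intervals leave room for a change of a few points of the cancer cells in either direction. The quasi-likelihood test of edgeR on cell counts likewise gave 0 adjusted calls for the 4 clusters. That covers 40 tests over the 5 comparisons and both scalings, with 3 unadjusted, all of cluster 27. Among the other cancer clusters, 8, 9 and 28 had adjusted calls in the same comparisons. Clusters 2, 8, 9, 10, 12 and 28 had unadjusted ones. For 80% against 60%, edgeR gave an unadjusted p under 0.05 in 4 of the 11 clusters by total cancer cells and 5 by TMM. Cluster 27 was among them in each, and 1 of the 11 passed adjusted in each. At 60% against WT by TMM, clusters 2, 8, 9, 10 and 28 were under 0.05 beside cluster 27.

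At 60% heteroplasmy cluster 27 was the cluster with the largest relative difference of the 4. Its share in WT ran from 0.624% through a median of 1.77% to 2.66%. It was 0.177%, 1.60% and 1.37% in mt.11944 60% and 0.190%, 0.379% and 1.13% in mt.12436 60%. The 2 lowest tumors gave 6 cells each, and the groups overlap, with 3 of 6 tumors at 60% below every WT tumor. The means were 0.808% ± 0.635 (SD, n = 6) and 1.80% ± 0.827 (SD, n = 7), a difference of -0.992 points (-1.92 to -0.0566). The exact permutation test gave p = 0.0385 (adjusted p = 0.0705), so the difference did not pass.

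Of the 4 clusters 0 passed the adjusted test at 60%, against 18.2% of the 11, and 1 of 4 had an unadjusted p under 0.05, against 54.5% of the 11. None of the 4 was without overlap, against 9.09%. Within batches the difference of cluster 27 was -0.997 points (exact permutation p = 0.045, adjusted p = 0.099). Without WT 4 the adjusted p of the exact permutation test was 0.0476, the only 1 of 13 runs with a tumor left out that passed. Among cells with 10000 to 20000 UMIs, a choice made after seeing the data, the difference was -0.084 points, with an adjusted p of 0.968, the highest of its alternatives. Clusters 12 and 9 also had a high dissociation percentage. Cluster 12 held 14.7% at 60% against 8.82% in WT, a difference of 5.89 points (-5.99 to 17.7). Cluster 9 held 5.02% against 14.1%, a difference of -9.11 points (-13.7 to -4.26). The exact permutation test gave an adjusted p of 0.368 for cluster 12 and 0.0288 for cluster 9. Whether digestion played a part in any of these shares was not tested.

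The other 3 clusters at 60% overlapped WT. The means were 8.38% against 9.74% in cluster 11 (difference -1.36 points, -4.17 to 1.48), 5.96% against 7.20% in cluster 14 (-1.24, -5.06 to 2.54) and 5.74% against 7.30% in cluster 16 (-1.56, -3.94 to 0.768). The adjusted p of the exact permutation test were 0.368, 0.469 and 0.277. In cluster 14 the tumors at 60% gave 1.60%, 10.3% and 8.97% for mt.11944 and 1.87%, 4.96% and 8.04% for mt.12436, a wider range than the 3.41% to 10.3% of WT.

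At 80% heteroplasmy each cluster had a higher mean than in WT, and 0 of 4 passed the adjusted test, as did 0% of the 11 clusters. With 3 against 7 tumors the exact permutation p cannot go below 0.00833. Cluster 28, at that floor, had an adjusted p of 0.0917, so no single cluster could pass alone. At an unadjusted p under 0.05 there was 1 of 4, against 18.2% of the 11, and 0 of 4 were without overlap, against 9.09%. The one was cluster 14, at 12.1%, 9.82% and 10.8% in mt.12436 80%, where WT ran from 3.41% through a median of 7.17% to 10.3%. The mean was 10.9% ± 1.16 (SD, n = 3) against 7.20% ± 2.29 (SD, n = 7), a difference of 3.73 points (0.524 to 7.11, exact permutation p = 0.0417, adjusted p = 0.229). In 2 of 3 tumors the share was above every WT tumor. Batch 3 held WT 6 alone of the WT tumors, at 5.73%, and the difference from it was 5.20 points, with a smallest possible p of 0.25.

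Cluster 27 at 80% had 3.38%, 2.18% and 2.89%, a mean of 2.82% against 1.80% in WT, a difference of 1.02 points (-0.322 to 2.29) and an adjusted p of 0.367 in the exact permutation test. Cluster 11 had 13.6%, 9.63% and 10.6% and differed by 1.53 points (-1.62 to 4.41). Cluster 16 had 8.42%, 7.09% and 7.57% and differed by 0.394 points (-2.84 to 3.20). Depth moved with this comparison, since the median UMIs of the 4 clusters' cells were 18321, 13032 and 13579.5 at 80% against a WT median of 23454.5. Among cells with 10000 to 20000 UMIs, a choice made after seeing the data, cluster 11 held 18.4% ± 0.919 (SD, n = 3) at 80% against 7.70% ± 3.88 (SD, n = 7), and cluster 27 held 4.77% ± 1.15 against 0.952% ± 0.862. The groups did not overlap there in either cluster, and the adjusted p of the exact permutation test was 0.0458 for each. In the same window cluster 14 held 16.8% ± 7.42 against 5.94% ± 10.4, a difference of 10.9 points with an exact permutation p of 0.15 (adjusted p = 0.236), and cluster 16 held 10.5% ± 1.90 against 6.96% ± 7.34. That window holds 14.3% to 57.2% of a tumor's cancer cells at 80% and in WT, and a fixed window takes different parts of a cluster in tumors of different depth.

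Between heteroplasmy levels cluster 27 had the largest fold of the 4 clusters, and cluster 14 the largest difference in points. The 3 tumors of cluster 27 at 80%, between 2.18% and 3.38%, lay above all 6 at 60%, which reached 1.60%. The mean was 3.48 times as high, a difference of 2.01 points (1.05 to 3.00). The exact permutation test gave p = 0.0119, the smallest that 3 against 6 tumors allow (adjusted p = 0.0655). Of the 4 clusters 0 passed the adjusted test, as did 0% of the 11, and 1 of 4 did not overlap, against 18.2% of the 11. At an unadjusted p under 0.05 it was 1 of 4, against 27.3%. Clusters 11, 14 and 16 differed by 2.89 points (-1.13 to 7.61), 4.97 points (-0.467 to 10.4) and 1.95 points (-0.485 to 4.73). No batch held both levels, so heteroplasmy and batch cannot be told apart here.

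The edits at 60% were compared with 3 tumors each, where the exact permutation test cannot go below a p of 0.1. Cluster 27 had a mean of 0.565% in mt.12436 60% and 1.05% in mt.11944 60%, cluster 14 had 4.95% and 6.96%, cluster 16 had 5.44% and 6.05%, and cluster 11 had 8.28% and 8.48%. Of the 4 clusters 0 passed the adjusted test, as did 0% of the 11, and none had an unadjusted p under 0.05. Each edit's difference from the WT tumors of its own batch was -1.13 points for mt.11944 and -0.859 for mt.12436 in cluster 27, and in cluster 14 -1.91 and -1.05. The differences between these differences gave an adjusted p of 0.856 to 0.91 for the 4 clusters in an exact permutation within batches.

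The phase calls were also compared over all cancer cells. In WT 63.4% ± 3.62 (SD, n = 7) of cancer cells were called G1, 20.8% ± 1.83 S and 15.7% ± 2.59 G2M. At 60% the values were 65.6% ± 4.99, 19.0% ± 1.98 and 15.4% ± 3.15 (SD, n = 6), and at 80% 60.1% ± 3.36, 20.5% ± 2.02 and 19.4% ± 1.60 (SD, n = 3). In the exact permutation test 0 of 3 phases passed in any of the 5 comparisons, adjusted or not, and so 0% of those tested. The smallest p was that of G2M at 80%, where the tumors gave 20.7%, 17.6% and 19.8% against 11.7% to 18.9% in WT. That difference was 3.65 points (-0.151 to 7.84), with an exact permutation p of 0.0667 (adjusted p = 0.2). Taken as a share of S and G2M calls alone, G2M at 80% was 5.74 points higher than in WT, with an unadjusted exact permutation p of 0.0417.

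At 60% the S share differed from WT by -1.85 points (-4.18 to 0.477) and the G2M share by -0.347 (-3.91 to 3.03), against -5.15 points for the summed share of the 4 clusters. The difference between calls and clusters was not tested, and without mt.11944 60% 1 and mt.12436 60% 1 the summed share was 25.9% against 26.0% in WT. Without WT 6, whose S share of 17.2% was the lowest of WT, the S difference at 60% was -2.45 points. The exact permutation test then gave an adjusted p of 0.026, the only 1 of 13 runs with a tumor left out that passed. In mt.12436 60% 1 the G1 share, 62.5%, was below the mean of WT although its summed cluster share was the second lowest.

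Within the clusters 13 measures were compared between mutant and WT tumors, each as the tumor's median or percentage. For all mutant tumors 0 of 39 measures of clusters 11, 14 and 16 passed the adjusted test, as did 0% of 117 over the cancer clusters with enough cells, and 0 of 39 had an unadjusted p under 0.05, against 1.71%. None was without overlap, as was 0% of the 117. At 60% it was 0 of 39 adjusted, against 0%, and 1 of 39 unadjusted, against 2.56%. None of the 39 was without overlap, against 0.855%. The one measure was the aneuploid share of cluster 14, 96.4% ± 3.60 (SD, n = 6) against 99.3% ± 0.766 (SD, n = 7). The tumors mt.11944 60% 1, at 90.7% of 54 cells, and mt.12436 60% 1, at 93.2% of 59 cells, were below the other tumors at 60%, which had 97.6% to 99.8%. The exact permutation test gave p = 0.0321 (adjusted p = 0.692). In cluster 11 the same tumors were also the lowest of all, at 88.0% of 175 cells and 96.0% of 173 cells. In cluster 16 they had 98.4% and 98.3%, and WT 2 was the lowest at 94.5%. Cluster 27 was left out of these tests, which asked for at least 10 cells in every tumor, since 2 of the 6 tumors at 60% had 6 cells each.

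At 80% 0 of 52 measures passed the adjusted test, as did 0% of 130. A single measure at the smallest possible exact permutation p, 0.00833, could not pass alone over 130 measures. At an unadjusted p under 0.05 there were 4 of 52, against 11.5% of 130. The members' count lay under the background of all cancer clusters. The S score of cluster 14 was 0.213, 0.235 and 0.206 in mt.12436 80% and ran in WT from 0.256 through a median of 0.344 to 0.431, without overlap. The means were 0.218 ± 0.0154 (SD, n = 3) and 0.337 ± 0.0637 (SD, n = 7), and the exact permutation test gave p = 0.025 (adjusted p = 0.271). The G2M score of cluster 14 was 0.385, 0.386 and 0.388 at 80%, below the 0.417 to 0.549 of WT, with an exact permutation p of 0.05. These 2 measures were the 2 of 52 without overlap, against 10.8% of 130. The lower S score was not particular to cluster 14. In clusters 2, 8, 9, 10 and 12, which are mainly called G1, the S scores at 80% also lay below every WT tumor. In cluster 2 they were -0.107, -0.0952 and -0.102, against a lowest WT value of -0.0933. In clusters 13 and 28 they overlapped WT. The lower G2M score was not particular to cluster 14 either. In clusters 8, 10 and 12 the G2M scores at 80% also lay below every WT tumor, and in clusters 2, 9, 13 and 28 they overlapped WT. In cluster 8 they were -0.148, -0.136 and -0.136, against a lowest WT value of -0.132.

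**Figure D5:**
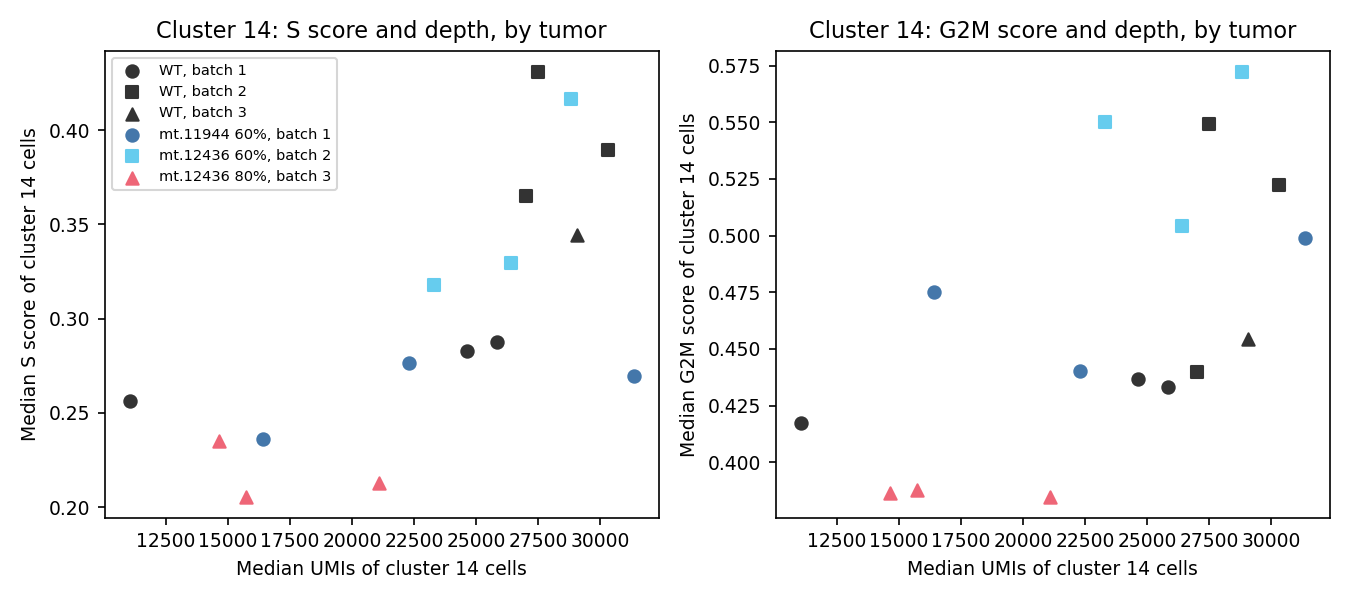
Each point is 1 tumor, placed by the median UMIs of its cluster 14 cells (x axis) and their median S score (left) or G2M score (right), with color for the group and shape for the batch. The 3 tumors of mt.12436 80% have the lowest S scores of the 16, from 0.206 to 0.235, and the lowest G2M scores, from 0.385 to 0.388, at 14642 to 21097 UMIs, with mt.11944 60% 2 next to them at an S score of 0.236 and 16410 UMIs, and WT 3 at 0.256 and 11058 UMIs.

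The other measures with an unadjusted p under 0.05 at 80% were a ribosomal percentage of 26.3% against 24.8% in cluster 14, a ribosomal percentage of 28.6% against 26.3% in cluster 27 and a G2M score of 0.244 against 0.310 in cluster 27. Their exact permutation p were 0.0417, 0.025 and 0.0417, with adjusted p of 0.342, 0.271 and 0.342. Against WT 6, the only WT tumor of their batch, the ribosomal differences were 0.219 and 0.554 points. The G2M score of cluster 27 differed from WT 6 by -0.0524, against -0.0662 from all WT tumors. The S score of cluster 14 differed from WT 6 by -0.127. The median UMIs of cluster 14 cells at 80% were 21097, 14642 and 15746, against 11058 to 30326 in WT, and the part of depth in the scores was not tested beyond the window of 10000 to 20000 UMIs. There the S score of cluster 14 differed by -0.0856 (-0.119 over all its cells), with an exact permutation p of 0.075.

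Over the 16 tumors the shares were set against the tumor's cancer cell content and depth. The relation closest to passing was that of cluster 14 with the cancer cell share of the tumor, with Pearson's r = 0.706 (permutation p = 0.00265, adjusted p = 0.0583 over 22 relations) and Spearman's rho = 0.638 (permutation p = 0.00924, adjusted p = 0.108). Without the 2 tumors farthest from the median r was 0.687, and within batches 1 and 2 it was 0.608 and 0.295, over 6 tumors each. Clusters 27, 16 and 11 gave r of 0.588, 0.516 and 0.293, with adjusted permutation p of 0.1, 0.148 and 0.494. With the median UMIs of the cancer cells r was -0.596 in cluster 14 (permutation p = 0.0147, adjusted p = 0.1; rho = -0.582, permutation p = 0.0198, adjusted p = 0.108) and -0.534, -0.340 and -0.153 in clusters 16, 27 and 11. Over both measures 0 of the 22 relations passed the adjusted test. Without the 2 tumors farthest from the median depth, WT 3 and mt.11944 60% 1, r of cluster 16 was -0.219, and that of cluster 14 was -0.556. With depth taken from the cancer cells outside the 4 clusters, r of cluster 14 was -0.694 (adjusted permutation p = 0.0291) and rho -0.597 (adjusted permutation p = 0.105). In batches 1 and 2 this r was -0.715 and -0.522. The 16 points come from 4 groups and 3 batches, and share of cancer cells, depth and group moved together, so their parts cannot be told apart.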

How the data were processed

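Per the study's methods, the authors sorted live cells from digested tumors, made 10x Chromium 3' libraries, aligned them with Cell Ranger and processed them in Seurat. They removed cells in which fewer than 500 genes or more than 37000 UMIs were counted, or in which mitochondrial UMIs passed 5%, joined the tumors with Harmony and formed clusters at a resolution of 0.2. One deposited table of all cells was used. Its counts are UMIs and genes per cell as deposited, without normalization. Its percent values are mitochondrial, ribosomal and dissociation percentages of a cell's UMIs by the authors. Its S, G2M and epithelial score columns are the authors' values on their own scales, and the doublet value is a fraction between 0 and 1 deposited from scDblFinder. How doublets were treated is not given in the sources used here.

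Shares were cells of a cluster over cancer cells of the tumor. Groups were compared by exact two-sided permutation of the difference of means over tumors, with 95% intervals from inverting that test and Benjamini-Hochberg adjustment over 11 clusters, 3 phases or all cluster measures. Per-cell measures were medians, or percentages for calls, for clusters with at least 10 cells in every tumor compared. Correlations used 100000 permutations. Among the alternatives, cell numbers per cluster were fitted by quasi-likelihood in edgeR. The members, lists and comparisons were chosen with earlier results of these data known. Clusters 11, 14, 16 and 27 are named by the rule that defines them, other cancer clusters only as background, and of the measures those with an unadjusted p under 0.05 or without overlap were described. Scripts were tested on simulated data. Tumors are the replicates, and p-values measure the spread between these tumors, each edited group coming from one edited line. Tools were Python 3.11.15, numpy 2.4.6, scipy 1.17.1, pandas 2.3.3, matplotlib 3.10.9, R 4.3.3 and edgeR 4.0.16.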

Additional observations from a re-analysis of the deposited data

Results flagged for a closer look

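Dixon's test was run on 33 groups of 6, 7 or 9 tumors, many of which share tumors, and marked 4 values, 1 of them in 2 groups. Chance marks about 1 in 20 groups, a rate that holds for separate groups. In mt.11944 60% 1 75.1% of cancer cells were called G1, far above the other tumors at 60%, and 9.52% were called G2M, far below the other mutant tumors. In the same tumor 33.3% of the cells of clusters 11, 14, 16 and 27 had over 33000 UMIs, far above the other tumors at 60% and above all other mutant tumors. In WT 6 17.2% of cancer cells were called S, below the other WT tumors.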

How the results depend on the processing

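The 10000 to 20000 UMI window and the setting without WT 5 and mt.11944 60% 1 were chosen after seeing the data. The number of the 11 clusters called for mutant against WT was 2 and became 1 as percent of all cells, within batches, without WT 5 and mt.11944 60% 1 and with edgeR (TMM), 0 with medians and in the window, and 1 to 2 with any tumor left out. At 60% it was 2 and became 1 as percent of all cells, 0 in the window and 2 to 6 with a tumor left out, 6 without WT 4. At 80% against WT it was 0 and became 2 in the window and 1 with either edgeR scaling, and against 60% it was 0 and became 1 with either. Phases called at 60% were 0, or 0 to 1 with a tumor left out, and measures called for all mutants were 0, or 1 without WT 5 and mt.11944 60% 1.

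Replicate numbers did not pair the tumors, since 7 of 18 same-number correlations of deviations were above 0.1. With the replicate block, over tumors numbered 1 to 3 alone, the calls were 0 for mutant against WT and 0 at 60%, and the mutant differences became 0.345 points for cluster 11, -1.26 for cluster 14 and -0.420 for G2M.

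Of 436 alternatives for the shares of the 4 clusters 26 changed sign. For mutant against WT cluster 11 became 0.390 as percent of all cells, 0.505 with medians, 4.72 in the window, 0.0369 (log2) with edgeR (TMM) and -0.930 to 0.126 with a tumor left out. Cluster 14 became -0.115 as centered log ratio and -0.213 to 1.17 with a tumor left out, cluster 16 0.2005 with medians and 0.305 in the window, and cluster 27 1.22 in the window. At 60% cluster 11 became 1.72 in the window. At 80% the centered log ratio gave -0.0154 for cluster 11 and -0.0846 for cluster 16, which had -0.145 (log2) with edgeR (TMM) and -0.0307 to 0.921 with a tumor left out. Between the edits, leaving out a tumor gave -1.91 to 1.20 for cluster 11 and -1.79 to 0.285 for cluster 16. Leaving out a tumor kept the sign but moved the size by over 1.5 times for several shares, among them cluster 11 at 80% (0.355 to 2.35), clusters 11 and 14 at 60% (-2.02 to -0.716 and -2.11 to -0.366) and cluster 16 for all mutants (-1.33 to -0.381), and the aneuploid percent of cluster 14 at 60% ranged from -3.54 to -1.72.

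Of 242 phase alternatives 26 changed sign. For all mutants G2M became -0.0336 with medians, G1 -11.5 and S 6.37 in the window, and G1 -0.394 without WT 5 and mt.11944 60% 1 and -1.07 to 1.27 with a tumor left out. At 60% G2M became 1.54 among S and G2M calls, 0.869 in the window, 0.150 without both tumors and -1.06 to 0.826 with a tumor left out, while G1 was -3.40 and S 2.53 in the window. At 80% S became 3.29 within batches, 14.05 in the window and -1.48 to 0.277 with a tumor left out, and against 60% -0.166 with medians. Between the edits the window gave 12.4 for G1, -6.57 for S and -5.80 for G2M, and leaving out a tumor -5.88 to 1.07 for G1 and -1.35 to 3.36 for G2M. The cause was not tested. Settings with too few splits to pass, within batches and the block at 80% and all between the edits, say nothing of stability.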
